A study of Mus musculus with 30 samples.

Results

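The 10 genes described here are Phgdh, Psat1, Psph, Shmt2, Mthfd2, Asns, Trib3, Chac1, Ddit3 and Atf4, which serve serine synthesis, mitochondrial one-carbon metabolism and the ATF4 stress response. Each was read from the array row that the platform annotation gives to that symbol alone, and each had 1 such row, so they are 10 of 19935 genes with a row of their own. They were followed through 10 groups of 3 arrays each, on total RNA from a mouse embryonic stem (ES) cell clone called NgR, in which Nanog, a transcription factor of pluripotency, was placed under the control of doxycycline (Dox). The clone derives from Ainv15 ES cells, which carry the Dox-responsive transactivator rtTA, and it was grown on primary mouse embryonic fibroblast feeders. The withdrawal groups were cells 1, 3 and 5 days after Dox removal. From each of these days, a pulse group was given Dox for 12 h and a time-matched control group went 12 h longer without it. The starting group, day 0, was kept on Dox at 1 ug/ml. All groups share this single clone. None of the groups was kept on Dox over the same days, so Dox withdrawal and time in culture cannot be told apart. None comes from a line whose Nanog was independent of Dox, so Nanog and Dox itself cannot be told apart. The labels number the replicates but do not say that they were separate cultures, so p-values measure the spread between arrays, which may be technical.

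Serine is made from the glycolytic intermediate 3-phosphoglycerate by the enzymes PHGDH, PSAT1 and PSPH in turn. In mitochondria SHMT2 moves a carbon unit from serine to folate, and MTHFD2 oxidises it for use in purine and thymidine synthesis, on which rapidly dividing ES cells draw. When amino acids are scarce or misfolded proteins build up in the endoplasmic reticulum (ER), kinases phosphorylate eIF2alpha, most translation slows, and the Atf4 mRNA is translated more. The ATF4 protein then activates genes of amino acid supply and stress, among them most of the enzymes above, so that the Atf4 mRNA level alone does not measure ATF4 activity.

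The letters TGATGNAA, which resemble the composite C/EBP-ATF element bound by ATF4, were searched on both strands of RefSeq promoter windows of GRCm38.p6, reaching 250 bases before and 50 after each gene's start site. All 10 genes have a window, and 3 of them, Asns, Trib3 and Chac1, hold a match, against 4.51% of 27025 genes. The matches are shown because these 3 genes follow different courses below. Capitals mark the motif, which reads as written in Asns and as its reverse complement in the other two.
Asns, chr6:7693210-7693248, minus strand: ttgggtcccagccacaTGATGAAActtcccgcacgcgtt
Trib3, chr2:152344028-152344057, minus strand: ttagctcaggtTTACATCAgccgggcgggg
Chac1, chr2:119351033-119351072, plus strand: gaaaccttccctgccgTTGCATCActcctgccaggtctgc
Counted from the start site, the motif begins at base -23 in Asns, at base 15 in Trib3 and at base -193 in Chac1. A match describes the letters only, and binding was not measured.

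All values are log2 RMA signals, in which each unit is a doubling of the array signal, and RMA tends to compress differences. Nanog averaged 11.03 ± 0.023 at day 0 (SD, n = 3), and its withdrawal means were 10.24, 10.51 and 9.85 at days 1, 3 and 5. Its pulse means were 11.09, 10.97 and 10.84, against control means of 10.30, 10.17 and 10.07, so each pulse brought Nanog close to its day 0 level. Array medians lay between 7.32 and 7.46. The arrays' interquartile ranges lay between 2.43 and 2.95, and the 4 widest arrays were all controls, 1 of day 1, 1 of day 3 and 2 of day 5. The mean of 12 ES markers was 10.56 to 10.64 at day 5 of withdrawal, the group with the lowest mean, and 11.34 to 11.40 at day 0. At day 5, 9 of the 12 were called lower than at day 0 and 0 higher. Among them, Klf4 went from 9.06 to 7.56 and Zfp42 from 11.72 to 9.92. The mean of 29 feeder fibroblast markers was 8.002 to 8.088 at day 5 of withdrawal and 7.76 to 7.81 at day 0. In these bulk samples, fewer cells of a type and less RNA per cell cannot be told apart.

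**Figure D1:**
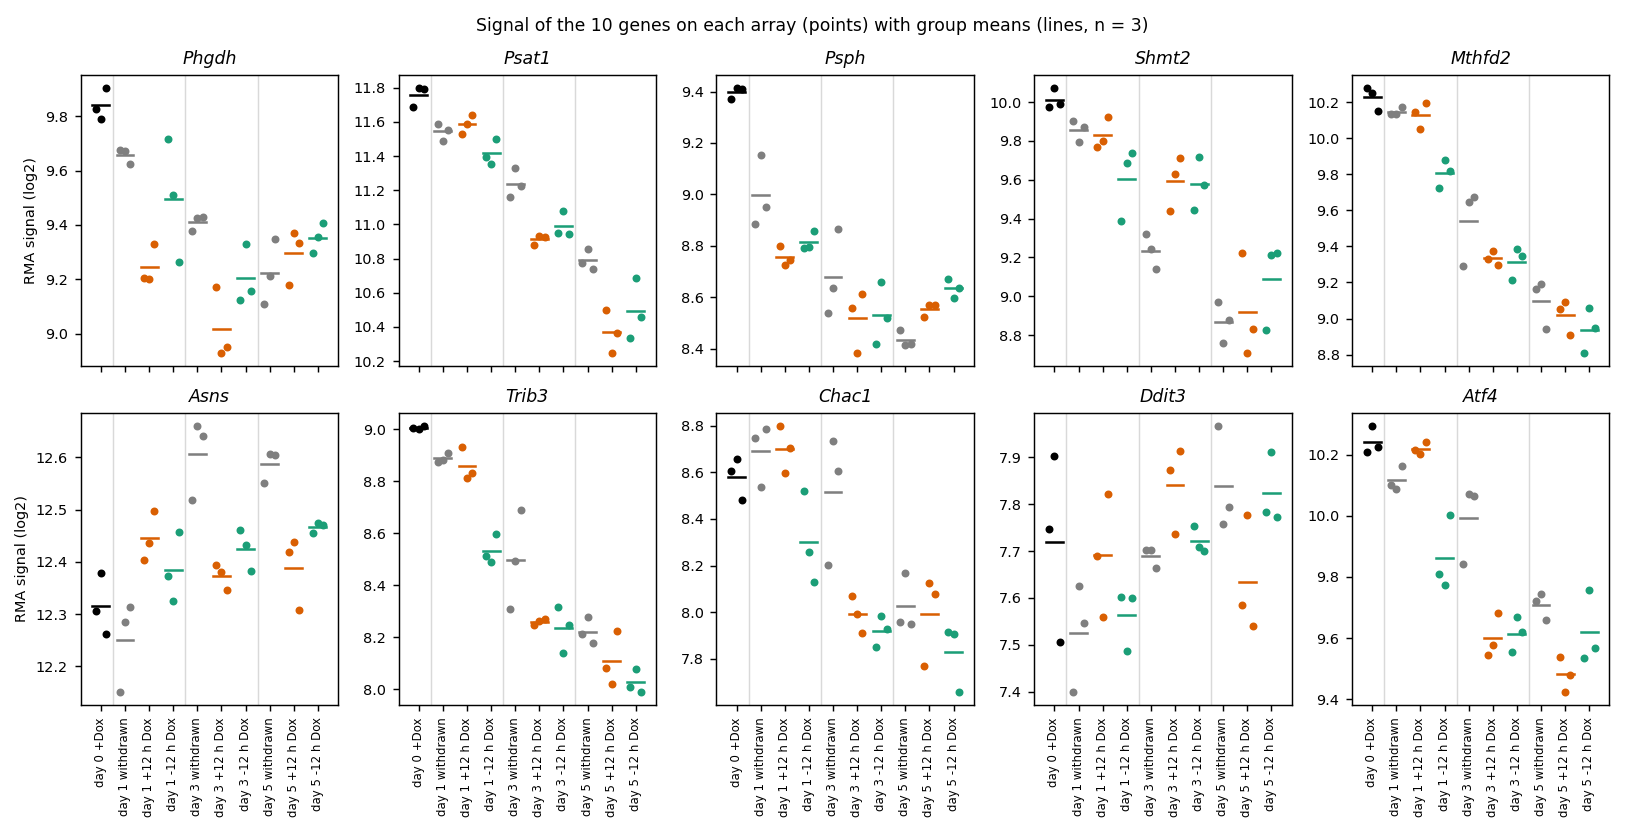
Signal of each of the 10 genes (y axis, log2 RMA signal, own scale per gene) on each of the 30 arrays (points) in the 10 groups, with a line at each group's mean of 3 arrays. Phgdh, Psat1, Psph, Shmt2, Mthfd2, Trib3 and Atf4 run downward over the days of withdrawal, Asns does not, and the Ddit3 groups span only 0.57 from the lowest to the highest array.

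The 3 enzymes of serine synthesis fell over the days of Dox withdrawal, and Psat1 and Psph ended near one another in size of change. Psat1, the aminotransferase of the pathway's middle step, had 11.69, 11.80 and 11.79 at day 0, then 11.59, 11.49 and 11.55 at day 1, 11.16, 11.33 and 11.23 at day 3, and 10.77, 10.86 and 10.74 at day 5. No array of any of these days overlapped those of the day before in the series. The day 5 change of Psat1 was -0.97 ± 0.078 against day 0 (SE, adjusted p = 8.75e-11 by limma with Benjamini-Hochberg adjustment over all 23385 clusters tested), or at 51.0% of the day 0 signal. Psph, the phosphatase that releases serine, had 9.37, 9.41 and 9.41 at day 0, 8.88, 9.15 and 8.95 at day 1, 8.54, 8.64 and 8.87 at day 3, and 8.47, 8.42 and 8.42 at day 5. Its day 0 arrays were the highest of all 30, and its day 5 withdrawal arrays gave the lowest group mean. Psph was the 1 gene of the 10 called at day 1 in the fit of all arrays, with a change of -0.40 ± 0.079 (adjusted p = 0.00146). Psat1 changed by -0.21 at day 1 (adjusted p = 0.11) and passed the threshold with the interquartile range as a covariate (adjusted p = 0.033) and without the 4 widest arrays (adjusted p = 0.0362). The day 5 change of Psph was -0.96 ± 0.079 (adjusted p = 1.26e-10).

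Phgdh, the dehydrogenase that commits 3-phosphoglycerate to serine, had 9.83, 9.79 and 9.91 at day 0, 9.67, 9.67 and 9.62 at day 1, 9.38, 9.42 and 9.43 at day 3, and 9.11, 9.21 and 9.35 at day 5. Here too the day 0 arrays were above all others. Phgdh fell, with a change of -0.43 ± 0.090 at day 3 (adjusted p = 0.000395) and of -0.62 ± 0.090 at day 5 (adjusted p = 2.16e-06), when 65.1% of the day 0 signal was left. A separate row lists Phgdh together with Gm6756 and was not used.

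The mitochondrial folate enzymes had the largest changes of the 10 at day 5 of withdrawal against day 0. Shmt2 had 9.97, 10.07 and 9.99 at day 0, 9.90, 9.80 and 9.87 at day 1, 9.32, 9.24 and 9.14 at day 3, and 8.97, 8.76 and 8.88 at day 5. Mthfd2 had 10.28, 10.25 and 10.15 at day 0, 10.13, 10.14 and 10.17 at day 1, 9.29, 9.65 and 9.68 at day 3, and 9.16, 9.19 and 8.94 at day 5. Day 1 of withdrawal lay close to day 0 for both genes, with no change past the threshold, and among the withdrawal groups the drop came by day 3. The day 1 controls, 12 h later, had means that differed from day 0 by -0.41 for Shmt2 and -0.42 for Mthfd2. Controls against day 0 were not tested. Shmt2 fell, with a change of -0.78 ± 0.116 at day 3 (adjusted p = 6.99e-06) and of -1.14 ± 0.116 at day 5 (adjusted p = 6.6e-09). Mthfd2 likewise changed by -0.69 ± 0.088 at day 3 (adjusted p = 7.09e-07) and by -1.13 ± 0.088 at day 5 (adjusted p = 5.35e-11). At day 5 the signals of Shmt2 and Mthfd2 were 45.2% and 45.7% of their day 0 signals.

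Atf4 mRNA fell as well, by less. Atf4 had 10.21, 10.29 and 10.22 at day 0, 10.10, 10.09 and 10.16 at day 1, 9.84, 10.07 and 10.06 at day 3, and 9.72, 9.74 and 9.66 at day 5. The arrays of each day lay below those of day 0. At day 5 the change was -0.53 ± 0.072 (adjusted p = 7.16e-07), which left 69.1% of the day 0 signal. The day 3 change was -0.25 ± 0.072 (adjusted p = 0.00784) and was -0.17 (adjusted p = 0.087) without replicate 1 of day 3 withdrawal, the lowest of its group.

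Trib3, a pseudokinase that ATF4 induces and that restrains ATF4 and AKT signalling, had 9.005, 9.003 and 9.011 at day 0, 8.87, 8.88 and 8.91 at day 1, 8.31, 8.49 and 8.69 at day 3, and 8.21, 8.28 and 8.18 at day 5. The 4 time points did not overlap. Trib3 fell, with a change of -0.51 ± 0.073 at day 3 (adjusted p = 4.19e-06) and of -0.78 ± 0.073 at day 5 (adjusted p = 1.5e-09), to 58.1% of the day 0 signal. Chac1, an enzyme that degrades glutathione, had 8.60, 8.66 and 8.48 at day 0, 8.75, 8.53 and 8.78 at day 1, 8.20, 8.74 and 8.61 at day 3, and 7.96, 8.17 and 7.95 at day 5. Its first 3 time points overlapped, and only day 5 lay apart, with a change of -0.55 ± 0.119 (adjusted p = 0.00036).

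Asns and Ddit3 did not follow the others. Asns, which makes asparagine from aspartate and glutamine, had 12.31, 12.38 and 12.26 at day 0, 12.15, 12.29 and 12.31 at day 1, 12.52, 12.66 and 12.64 at day 3, and 12.55, 12.61 and 12.60 at day 5. The arrays of days 3 and 5 were above every array of days 0 and 1. Asns rose by 0.29 ± 0.059 at day 3 (adjusted p = 0.000329) and by 0.27 ± 0.059 at day 5 (adjusted p = 0.00045), to 121% of the day 0 signal. Ddit3 encodes CHOP, a transcription factor that promotes cell death under ER stress. It had 7.75, 7.90 and 7.51 at day 0, 7.40, 7.63 and 7.55 at day 1, 7.70, 7.70 and 7.66 at day 3, and 7.97, 7.76 and 7.79 at day 5. The day 0 arrays overlapped those of every later day, and the day 5 change of 0.12 ± 0.089 did not pass the test (adjusted p = 0.299).

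**Figure D2:**
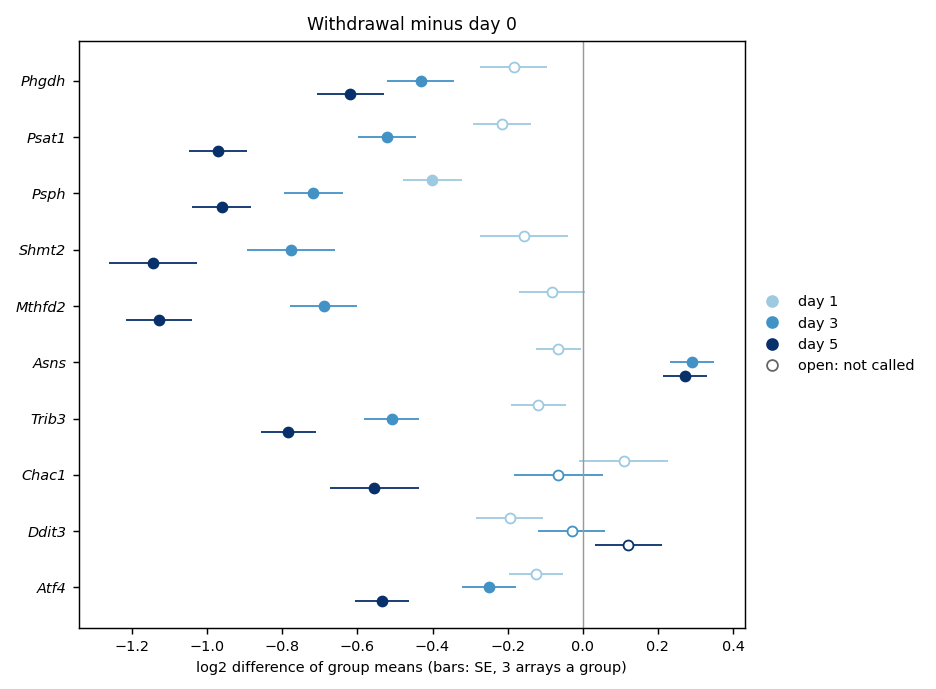
Difference of group means from day 0 (x axis, log2) at days 1, 3 and 5 of withdrawal for each of the 10 genes, with bars of 1 SE and open circles where the adjusted p was not under 0.05. By day 5 of withdrawal 8 genes lie left of 0 with filled circles, Asns lies at 0.27 and Ddit3 is open at 0.12.

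Counted over the 10 genes, 1 fell at day 1, where 3.02% of all clusters fell. At day 3, 7 fell and 1 rose, against 14.3% and 19.6% of all clusters. At day 5, 8 fell and 1 rose, against 18.8% and 23.8%. The median change of the 10 was -0.14, -0.47 and -0.70 at days 1, 3 and 5, beside 0.02, 0.02 and -0.01 over all clusters. With each array centred on its median, the split over all clusters at day 5 became 4579 higher and 5369 lower in place of 5558 and 4387, and at day 3 it became 3248 and 4130 in place of 4580 and 3334. At day 1 it became 465 and 609 in place of 815 and 707. The 9 calls among the 10 genes at day 5 held under that centring and under every other alternative run. The 3 comparisons share the day 0 arrays. Feeder markers moved with them, since 13 of 29 rose and 2 fell at day 5, and 9 of 12 ES markers fell. Their part in the changes was not tested.

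Between days 1 and 3 of withdrawal, 6 of the 10 fell and 1 rose, against 9.77% and 13.2% of all clusters. With each array centred on its median, the split over all clusters became 2286 higher and 2412 lower, in place of 3077 and 2285. The changes were -0.62 for Shmt2, -0.61 for Mthfd2, -0.39 for Trib3, -0.32 for Psph and -0.31 for Psat1. Asns rose by 0.36 (adjusted p = 6.25e-05). The change of Phgdh over this step, -0.25 (adjusted p = 0.0467), passed the threshold no longer when any 1 of the 6 arrays compared was left out, with adjusted p from 0.0734 to 0.129. Between days 3 and 5, 7 fell and none rose, against 4.75% and 7.59% of all clusters. The changes were -0.49 for Chac1, -0.45 for Psat1, -0.44 for Mthfd2, -0.37 for Shmt2, -0.28 for Atf4, -0.28 for Trib3 and -0.24 for Psph. Of these, Psat1 and Mthfd2 stayed past the threshold with each array left out in turn, whereas the count fell to 3 without replicate 2 of day 3 withdrawal and to 4 without replicate 3 of day 5 withdrawal.

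The controls, which went 12 h longer without Dox than the withdrawal group of their day, were lower for several of the ATF4-linked genes. At day 1, Trib3 had 8.51, 8.49 and 8.60 in controls, against 8.87, 8.88 and 8.91 in the withdrawal group, a difference of -0.36 ± 0.073 (adjusted p = 0.00522). The groups did not overlap. Mthfd2 (-0.34, adjusted p = 0.0207) and Atf4 (-0.25, adjusted p = 0.0326) were also lower, so that 3 of the 10 fell, against 1.23% of all clusters. Chac1 had 8.52, 8.26 and 8.13 in day 1 controls, against 8.75, 8.53 and 8.78 in the withdrawal group, apart but just short of the threshold (-0.39, adjusted p = 0.0502), and it was called in 10 of 37 alternatives. The Trib3 call held with each array left out in turn. That of Mthfd2 had adjusted p from 0.0669 to 0.0704 without replicate 1 or 3 of day 1 withdrawal or replicate 1 of the day 1 control, and that of Atf4 had adjusted p from 0.0556 to 0.162 without any array of day 1 withdrawal or without replicate 1 or 2 of the control. At day 3, Chac1 had 7.85, 7.98 and 7.93 in controls, against 8.20, 8.74 and 8.61 in the withdrawal group, with no overlap. Chac1 (-0.59, adjusted p = 0.00617) and Atf4 (-0.38, adjusted p = 0.00367) were the 2 genes that fell, against 0.402% of all clusters, and Chac1 had an adjusted p of 0.072 without replicate 2 of day 3 withdrawal. Shmt2 had 9.45, 9.72 and 9.57 in day 3 controls, against 9.32, 9.24 and 9.14 in the withdrawal group. The groups did not overlap, but the difference of 0.34 did not pass the test (adjusted p = 0.154). Shmt2 was called higher with the interquartile range as covariate (0.26, adjusted p = 0.0233). Asns had 12.46, 12.43 and 12.38 in day 3 controls, against 12.52, 12.66 and 12.64 in the withdrawal group, again apart and not past the test (-0.18, adjusted p = 0.137). It was called lower with trend and robust variances (adjusted p = 0.0358). At day 5, Psat1 was the 1 gene that fell (-0.30, adjusted p = 0.0325), against 0.984% of all clusters. The Psat1 call was lost, with adjusted p from 0.0582 to 0.166, without any array of day 5 withdrawal or without replicate 1 or 3 of the day 5 control. None of these calls was made when the compared groups were fitted alone. In the same comparisons, 5 of 29 feeder markers were higher and 0 lower at day 1. At day 3, 1 was higher and 0 lower, and at day 5, 0 were higher and 6 lower. Of 23385 clusters, 1174, 302 and 543 were higher and 288, 94 and 230 lower on these days. At an unadjusted p under 0.05 by limma there were 9 of 29 feeder markers on each day, against 20.3%, 12% and 19% of all clusters. The part of the feeder markers in the differences was not tested. Centring each array on its median changed the day 5 split over all clusters to 604 higher and 91 lower, in place of 543 and 230.

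The 12 h pulse of Dox at day 1 was followed by higher Atf4, Trib3 and Mthfd2 than in the time-matched controls. Atf4 had 10.21, 10.20 and 10.24 in pulsed cells, against 9.81, 9.77 and 10.00 in controls. The pulsed arrays lay at the level of day 0, and the difference was 0.36 ± 0.072 (adjusted p = 0.0051). Trib3 had 8.93, 8.81 and 8.83 in pulsed cells, against 8.51, 8.49 and 8.60 in controls, again without overlap (0.33 ± 0.073, adjusted p = 0.0109). Mthfd2 had 10.15, 10.05 and 10.19 in pulsed cells, against 9.73, 9.88 and 9.82 in controls (0.32 ± 0.088, adjusted p = 0.0364). These 3 of the 10 were called higher than in controls, against 0.547% of all clusters, and the median over the 10 was 0.20, beside 0.01 over all clusters. The median is given for all 10, of which 7 did not pass the test. Pulse means lay near those of the day 1 withdrawal group, from which the pulse started. They were 8.86 against 8.89 for Trib3, 10.13 against 10.15 for Mthfd2 and 10.22 against 10.12 for Atf4, the last without overlap of arrays. Control means were lower, at 8.53, 9.81 and 9.86. Pulse against withdrawal group was not tested.

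Chac1 had 8.80, 8.60 and 8.70 in pulsed cells at day 1, against 8.52, 8.26 and 8.13 in controls, a difference of 0.40 ± 0.119 that missed the threshold (adjusted p = 0.0615). Phgdh had 9.20, 9.20 and 9.33 in pulsed cells, against 9.72, 9.51 and 9.26 in controls, and overlapped (-0.25, adjusted p = 0.127). Phgdh was called lower without replicate 3 of the day 1 control (-0.37, adjusted p = 0.0171) and without the 4 widest arrays (-0.37, adjusted p = 0.011). Counting overlap alone, 6 of the 10 had all pulsed arrays above all control arrays, against 6.91% of all clusters. The Atf4 call held with each array left out in turn. Trib3 had an adjusted p of 0.066 without replicate 2 of the day 1 control and 0.0765 without replicate 1 of the day 1 pulse, Mthfd2 had adjusted p from 0.0632 to 0.122 without any 1 of the 6 arrays, and Chac1 had an adjusted p of 0.0266 without replicate 1 of the control. Fitting the day 1 groups alone gave none of the 10 past the threshold, with adjusted p from 0.114 for Atf4 to 0.131 for Mthfd2 among the 3 genes, and taking the arrays' interquartile range as a covariate gave 5. Feeder markers moved beside these genes, with 4 of 29 lower after the pulse, where 749 of 23385 clusters were lower. The mean of the feeder markers was 7.83 to 7.87 in pulsed cells and 7.84 to 7.93 in controls, and their part was not tested.

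**Figure D3:**
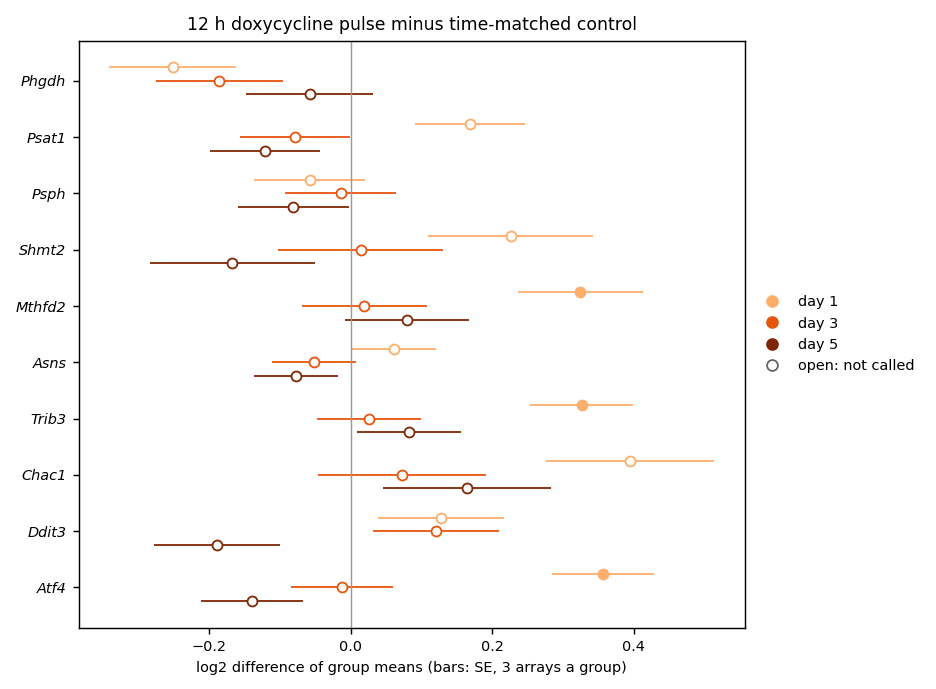
Difference of pulse from time-matched control (x axis, log2) at days 1, 3 and 5 for each of the 10 genes, with bars of 1 SE and open circles where the adjusted p was not under 0.05. Filled circles appear at day 1 for Mthfd2, Trib3 and Atf4, between 0.32 and 0.36, and nowhere at days 3 and 5.

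At days 3 and 5 none of the 10 passed the limma test between pulse and control. On each day 1 of the 10 had an unadjusted p under 0.05, against 14.6% and 32.7% of all clusters. By the adjusted p, 0.0385% and 12.2% of all clusters were called. The day 5 count over all clusters, 2860, was 537 with the interquartile range as covariate and 55 without the 4 widest arrays, which include 2 of the 3 day 5 controls. Atf4 had 9.54, 9.58 and 9.68 in pulsed cells at day 3, against 9.55, 9.67 and 9.62 in controls. At day 5 Atf4 had 9.54, 9.43 and 9.48 in pulsed cells, against 9.54, 9.76 and 9.57 in controls. Both pairs met or overlapped, in contrast with day 1. Shmt2 at day 5 had 9.22, 8.71 and 8.83 in pulsed cells, against 8.83, 9.21 and 9.22 in controls. The Shmt2 difference of -0.17 (adjusted p = 0.309) was -0.32 without replicate 1 of the day 5 pulse (adjusted p = 0.0459) and turned to 0.09 without the 4 widest arrays (adjusted p = 0.926) and to 0.13 with the interquartile range as covariate (adjusted p = 0.413). The pulse effect of Atf4 was lower at day 5 than at day 1, with a difference of -0.50 ± 0.102 (adjusted p = 0.0428), 1 of the 10, against 0.0513% of all clusters. The day 3 effect minus the day 1 effect and the day 5 effect minus the day 3 effect passed the limma test in none of the 10, against 0.00855% and 0.936% of all clusters. For these, 4 and 1 of the 10 had an unadjusted p under 0.05, against 6.59% and 16.2% of all clusters. The adjusted p of the Atf4 difference between day 5 and day 1 was over 0.05 in 28 of 37 alternatives, among them every fit without 1 of the day 1 pulse arrays (0.111 to 0.114).

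Averaged over the 3 days, Chac1 (0.21, adjusted p = 0.0325), Trib3 (0.14, adjusted p = 0.0196) and Mthfd2 (0.14, adjusted p = 0.0492) were higher in pulsed cells than in controls, and Phgdh was lower (-0.17, adjusted p = 0.0271). These are 3 higher and 1 lower, against 6.8% and 14% of all clusters. At days 1, 3 and 5 the differences were 0.40, 0.07 and 0.16 for Chac1 and 0.33, 0.03 and 0.08 for Trib3. They were 0.32, 0.02 and 0.08 for Mthfd2 and -0.25, -0.19 and -0.06 for Phgdh, so each was largest at day 1. None of these 4 was called when the 4 widest arrays, all controls, were left out, with adjusted p from 0.0983 for Mthfd2 to 0.367 for Chac1. Of 37 alternatives, the call was lost in 27 for Mthfd2, 11 for Phgdh, 10 for Chac1 and 5 for Trib3.

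Set against day 0, the pulsed cells of day 1 were lower in Phgdh (-0.60, adjusted p = 8.22e-05) and Psph (-0.64, adjusted p = 7.32e-06), 2 of the 10, against 4.99% of all clusters. Atf4 differed from day 0 by -0.02 (adjusted p = 0.89). The pulsed cells of days 3 and 5 were each lower than day 0 in 8 of the 10, against 10.9% and 17.8% of all clusters, and higher in none, against 14.4% and 21.4%. Asns (0.06 and 0.07) and Ddit3 (0.12 and -0.08) were the exceptions at days 3 and 5. The day 3 changes of the serine enzymes were close to each other, at -0.82 for Phgdh, -0.85 for Psat1 and -0.88 for Psph, while Shmt2 stood at -0.42 (adjusted p = 0.00788, and -0.34 with an adjusted p of 0.061 without replicate 1 of the day 3 pulse, which leaves 7 of the 10 lower) and Mthfd2 at -0.89. Trib3 changed by -0.75, Atf4 by -0.64 and Chac1 by -0.59. At day 5 the changes were -0.55 for Phgdh, -0.84 for Psph, -1.09 for Shmt2, -1.21 for Mthfd2, -0.90 for Trib3, -0.76 for Atf4 and -0.59 for Chac1. Psat1 at day 5 had 10.50, 10.25 and 10.36 in pulsed cells, against 11.69, 11.80 and 11.79 at day 0, with no overlap and a change of -1.39 that left 38.2% of the day 0 signal. The Nanog means of these groups were 10.84 and 11.03. Centring each array on its median changed the split over all clusters to 605 higher and 1210 lower at day 1, in place of 1456 and 1167, to 2365 and 2910 at day 3, in place of 3360 and 2557, and to 4078 and 4534 at day 5, in place of 4994 and 4163.

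Other genes of the same pathways were read from lists. Among 21 measured further genes of serine, glycine and folate metabolism, 12 fell and 4 rose at day 5 of withdrawal, with a median of -0.27. For this and the next lists, 18.8% of all clusters fell and 23.8% rose, with a median of -0.01, so that 4 of 21 higher is near the share over all clusters. The changes were -1.01 ± 0.106 for Gcsh, the carrier protein of the glycine cleavage system, -0.96 for Shmt1, the cytosolic counterpart of Shmt2, and -0.95 for Tyms, thymidylate synthase. Srr, serine racemase, rose by 0.83. Cytosolic aminoacyl-tRNA synthetases, several of which ATF4 induces, fell in 13 of 18 and rose in 1, with a median of -0.30. The changes were -0.89 for Hars, -0.81 for Tars, -0.68 for Lars and -0.50 for Yars, which charge histidine, threonine, leucine and tyrosine tRNAs.

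Among 28 further ATF4 targets, 14 fell and 8 rose at day 5, with a median of -0.20. The 8 that rose were near the 23.8% of all clusters that rose. Nupr1, a stress-induced chromatin protein, changed by -0.95, and Cth, which makes cysteine from cystathionine, by -1.02. Sqstm1, an autophagy receptor, rose by 0.73 and Atf3, a stress-induced transcription factor, by 0.68. ER chaperones and genes of the unfolded protein response went mostly the other way, with 15 of 26 higher, 4 lower and a median of 0.29. The 4 that were lower were near the 18.8% of all clusters that fell. Dnajc3, a co-chaperone that inhibits eIF2alpha kinases, rose by 0.69, and Sel1l and Derl1, parts of the ER degradation machinery, by 0.63 and 0.58, while Atf6b fell by 0.69. Of 19 genes listed as eIF2alpha kinases and regulators of the stress response that follows eIF2alpha phosphorylation, 9 fell and 6 rose, with a median of -0.22. The 6 that rose were also near the share over all clusters. This stress response list is wider than eIF2alpha and includes Ddit4l and Nfe2l2, both among the 6 that rose. Eif2b4, a subunit of the exchange factor that eIF2 needs, fell by 0.68 and Eif2ak2, the kinase PKR, rose by 0.68. At day 3, where 14.3% of all clusters fell and 19.6% rose, 6 of 21 folate genes fell and 5 rose, 10 of 18 synthetases fell and 1 rose, and 9 of 28 ATF4 targets fell and 6 rose. The rises among folate genes and ATF4 targets were near the share over all clusters. On that day 7 of 26 ER genes fell and 9 rose. Of the 19 genes of the stress response list 3 fell and 5 rose, also near the shares over all clusters.

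**Figure D4:**
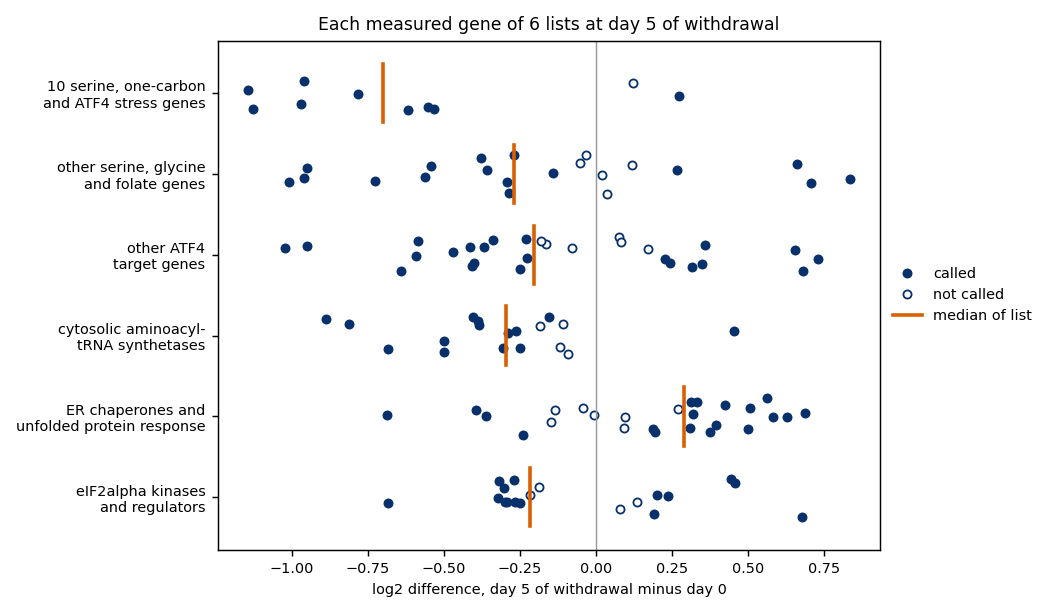
Change of each measured gene (points) at day 5 of withdrawal minus day 0 (x axis, log2) for the 10 genes and 5 further lists (rows), filled where the adjusted p was under 0.05, with an orange line at each list's median; vertical position within a row carries no value. The median of the 10 genes lies at -0.70, the tRNA synthetases have 1 gene that rose, and the ER chaperones have the one list median above 0, at 0.29.

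At the day 1 pulse, 3.75% of all clusters were called against controls. None of the 18 tRNA synthetases passed the limma test, and 5 of them had an unadjusted p under 0.05, against 16.2% of all clusters. Of 21 folate genes 1 was called, Aldh1l1, which was lower by 0.36. Of the 19 genes of the stress response list 2 were called, Ddit4l, lower by 0.33, and Gcn1, which activates GCN2, lower by 0.23. Of 28 ATF4 targets 2 were called, Nupr1, higher by 0.42, and Sqstm1, lower by 0.40. Of 26 ER genes 1 was called, Herpud1, an ER degradation factor, higher by 0.37. The counts of folate and ER genes were near the share over all clusters, and the other counts rest on 2 genes each. Over the mean of 3 pulses, where 14% of all clusters fell and 6.8% rose, 6 of 21 folate genes fell, among them Aldh1l1 (-0.29), Mtr (-0.23), Slc25a32 (-0.19) and Gldc (-0.14). Of 28 ATF4 targets 3 rose and 4 fell, near those shares, with Vegfa at 0.24, Nupr1 at 0.22 and Fgf21 at 0.18, and Sqstm1 at -0.24. Of the 19 genes of the stress response list 4 fell, with changes of -0.26 for Ddit4l, -0.21 for Eif2ak3, the kinase PERK, -0.15 for Eif2b3 and -0.11 for Eif2ak4, the kinase GCN2. Of 26 ER genes 5 fell, among them Dnajb9 (-0.25). This count and the 4 of 19 were near the share over all clusters. Of 18 synthetases 1 fell, Qars (-0.11), under that share. Without the 4 widest arrays, the genes of these 5 lists called over the mean of 3 pulses were 2 ATF4 targets and 1 gene of the stress response list.

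Across the 10 group means, the profile most like that of Trib3 among 11999 genes searched was that of Mthfd2 (Pearson r = 0.986), and Trib3 was in turn second to D16Ertd472e (r = 0.987) for Mthfd2, ahead of the threonyl-tRNA synthetase Tars (r = 0.986). Trib3 was also the profile most like Atf4 (r = 0.958), and Atf4 the most like Chac1 (r = 0.949). The closest profile to Psat1 was that of Bid (r = 0.991), to Shmt2 that of Pcyt1b (r = 0.985) and to Psph that of Ccdc25 (r = 0.981). Phgdh was nearest to Akirin1 (r = 0.921), Asns to Rbm20 (r = 0.930) and Ddit3 to Myl12a (r = 0.955). The group means share their arrays and scaling across genes, and these values describe the 10 groups only.

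The 10 groups were also sorted by each gene's own means, and neighbouring groups without overlap of their arrays were counted. Psat1 had 6 of 9 neighbouring groups without overlap and Atf4 had 4, whereas Chac1 had 0 and Phgdh, Asns and Ddit3 had 1 each. Sorting by the same means favours separation, and these counts were not taken over all clusters. They therefore do not show whether these genes stood apart more clearly than others.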

How the data were processed

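Total RNA was measured on 30 Affymetrix Mouse Gene 1.0 ST arrays, 3 in each of 10 groups taken from the labels. Per the submitters' processing notes, the authors' tools were RMA and Affymetrix Expression Console, and the deposited values are on a log2 scale. Versions and genome build are not given in the sources used here, and the number of arrays limits precision. Of 28815 probe clusters, 21780 have 1 symbol in the platform annotation, 1605 several and 5430 none. The 23385 with a symbol were fitted in limma 3.58.1 (R 4.3.3), with 1 mean per group over all 30 arrays, moderated variances and 18 contrasts. P-values were Benjamini-Hochberg adjusted within each contrast, and a gene was called at an adjusted p under 0.05. Values were used as deposited, with no filter, and the fit was tested on simulated data.

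The members and gene lists were chosen with earlier results of these data known. All 10 members were to be named in every contrast; those not past the threshold are given mostly as counts. From each other list the text names up to 4 called genes with the largest change, at day 5 of withdrawal and in the mean of 3 pulses, plus called genes of the day 1 pulse chosen after their values were seen. The 3 most like profiles were ranked by Pearson r over group means, among genes over the 40th percentile of mean signal, and the nearest are named. Promoter sequences are RefSeq's (GRCm38.p6). Alternatives were trend and robust variances, the compared groups alone, median centring, a filter on dim clusters, a replicate block, interquartile range as a covariate, leaving out the 4 widest arrays, and leaving out each array in turn. For the other gene lists, the covariate and the fit without the widest arrays were chosen after seeing the data. No 2 replicates of a group held identical values.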

Additional observations from a re-analysis of the deposited data

Results flagged for a closer look

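The effect of the pulse on Atf4 differed between days by the test of the difference itself, with a day 5 effect minus day 1 effect of -0.50 (log2, adjusted p = 0.0428 by limma). At day 1 every pulse array lay above every control array, and at day 5 the pulse and control arrays overlapped. The difference passed the threshold in the fit of all arrays but had an adjusted p of 0.49 with the compared groups alone, 0.146 with median centring and up to 0.158 when single arrays were left out.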

How the results depend on the processing

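Of the 64 calls on the 10 genes over 18 contrasts, none reversed under any alternative, and all 9 at day 5 of withdrawal held in every one. Calls kept were 64 with trend and robust variances, 64 with the dimmest 40 percent of clusters left out, 62 with a replicate block, 60 with the interquartile range as covariate, 59 without the 4 widest arrays, 55 with median centring and 49 with the compared groups alone. The numbers did not pair the arrays (same-number correlations from -0.72 to 0.35). The replicate block lost Phgdh between days 1 and 3 (adjusted p = 0.0596) and the Atf4 difference between day 5 and day 1 pulses (adjusted p = 0.0621), leaving 0 there, and changed no other call. The count of called genes at day 1 of withdrawal, 1, was 2 with the covariate and 2 without the widest arrays. At the day 1 pulse, 3 became 0 with groups alone and 5 with the covariate (1 to 4 leaving out single arrays). Over the mean of pulses, 4 became 2 with groups alone, 2 with centring, 0 of the same 4 but 1 other gene, Shmt2 (0.21, adjusted p = 0.00744), with the covariate, and 0 without the widest (1 to 4). The day 5 against day 1 pulse difference, 1, became 0 with groups alone, with centring and without the widest (0 to 1). For controls against withdrawal, day 1 had 0 with groups alone and 1 with centring (1 to 4), day 3 had 0 with groups alone and 5 with the covariate (1 to 4), and day 5 had 0 with groups alone and with centring (0 to 1). The range was 3 to 7 for day 5 against day 3 and 0 to 1 for the day 5 pulse. The cause of these shifts was not tested. Choosing another row per gene could not be run, since no gene has a second row of its own.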
